A study of Saccharomyces cerevisiae with 6 samples.

Results

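The genes described here act where the purine pathway divides at inosine monophosphate (IMP) and where free bases are salvaged. They are IMD2, IMD3, IMD4, GUA1, ADE12, AAH1, APT1, HPT1 and AMD1 of budding yeast. They were chosen by gene symbol in the platform's annotation. The 9 genes, of 5561 named ones, had 1 spot each and a value on all 6 arrays. RNA was compared on 6 two-colour arrays between cells in caffeine and untreated cells of the same strain. All cells were W303a yeast lacking the chromosomal TOR1 gene and carrying haemagglutinin-tagged TOR1 on a plasmid. In the mutant strain the plasmid TOR1 carried the substitutions I1954V and W2176R, and in the WT strain it was unaltered. Caffeine was given at 3, 6 or 9 mM. A single array stands for a strain at a dose, so no dose had a replicate. The comparison is of how the substituted and the WT allele respond to caffeine.

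IMP is the last common product of de novo purine synthesis. IMP dehydrogenase, the enzyme encoded by IMD2, IMD3 and IMD4, opens the guanine branch, and GMP synthetase (GUA1) completes it. Adenylosuccinate synthetase (ADE12) opens the adenine branch, and AMP deaminase (AMD1) turns AMP back into IMP. Phosphoribosyltransferases recover free bases, adenine through APT1, and hypoxanthine and guanine through HPT1, while adenine deaminase (AAH1) turns adenine into hypoxanthine. Caffeine, a methylxanthine and so itself a purine, inhibits TOR complex 1, a kinase assembly that adjusts growth to the nutrient supply. W303 strains commonly carry an ade2 mutation and then depend on adenine from the medium, but the labels do not give the rest of the genotype.

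The deposited values were log2 ratios, taken here as caffeine over no caffeine (Cy5 over Cy3). No label or header used here says which channel was divided by which, and every sign would turn if it ran the other way. The median named gene of each array was set to 0, having been deposited at between -0.54 and -0.22, so a value of 0 is the median gene and not necessarily an unchanged one. A ratio of bulk RNA cannot tell fewer expressing cells from less RNA per cell, and it carries no level, so genes are compared by response only. For the same reason the mating type could not be checked from levels. Of 7 genes specific to a cells, 1 rose in the mutant and 3 rose in WT, and of 5 genes specific to alpha cells, 1 rose in the mutant and 3 rose in WT. Among all tested genes 12.1% rose in the mutant and 17.2% in WT. The part of these cell-type genes in the results was not tested.

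With the mutant TOR1, 5 of the 9 genes fell with caffeine and none rose (0 higher also at an unadjusted p under 0.05), against 15.8% of all 5212 tested genes that fell and 12.1% that rose (27.9% either way). With WT TOR1, 8 of the 9 fell and ADE12 rose, against 16.3% of all genes that fell and 17.2% that rose (33.5% either way). The words rose and fell stand for a slope on dose with an adjusted p below 0.05 in limma over all 5212 genes. The slope is that of a straight line through 0 at 0 mM, given per mM on the log2 scale as slope ± SE (n = 3 arrays per strain, spread pooled over both strains). The median slope of the 9 genes was -0.17 in the mutant and -0.30 in WT, where the median of all genes was 0.00 in both. The genes were chosen with earlier results of these data known, so these counts say nothing about how unusual the group is. IMD4 and AAH1 had been singled out for their steep WT slopes, and their slopes are given without a p.

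**Figure D1:**
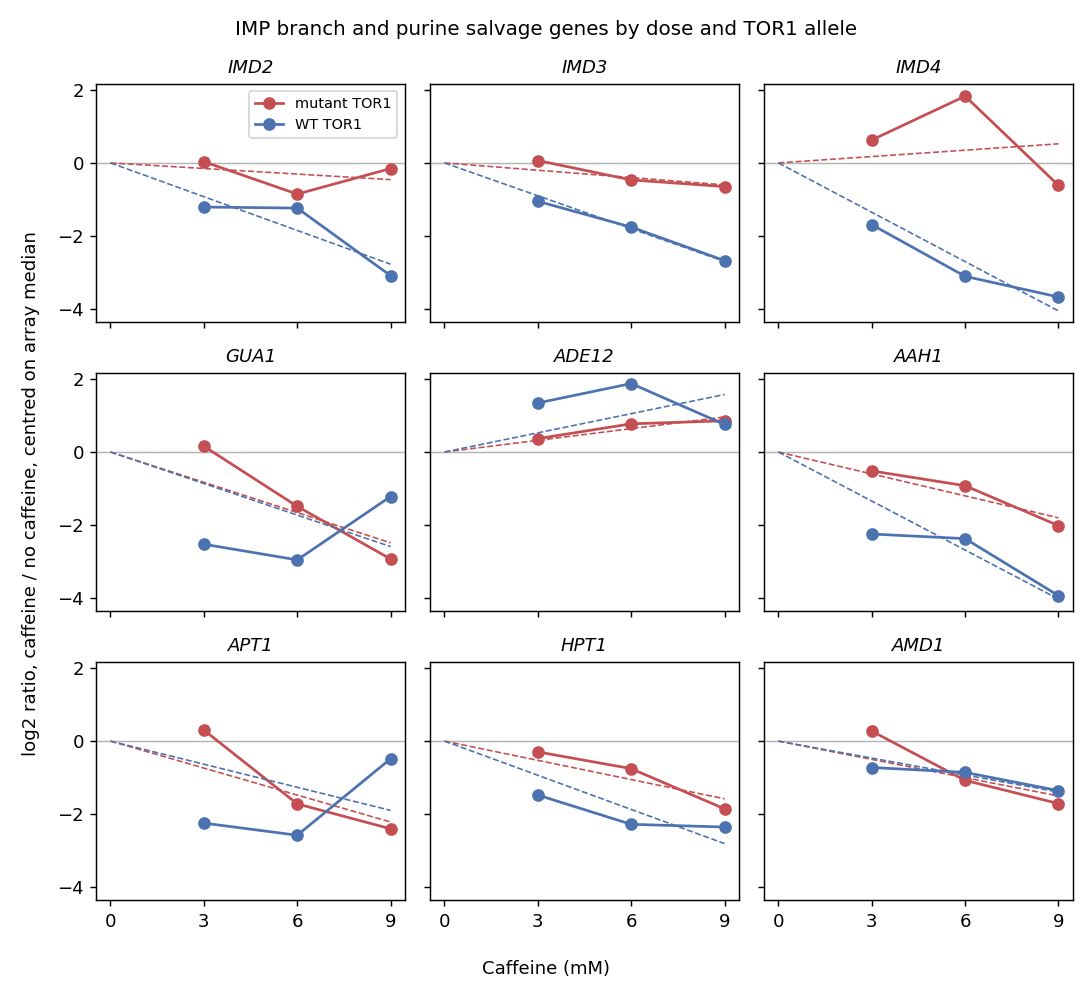
Centred log2 ratio (caffeine over no caffeine) of each of the 9 genes against caffeine dose in mM, with mutant TOR1 in red and WT TOR1 in blue. Points are single arrays and dashed lines are the fitted lines through 0. The WT points of IMD2, IMD3, IMD4 and AAH1 lie below the mutant points at all 3 doses, while the lines of GUA1, APT1 and AMD1 nearly coincide.

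The 3 IMP dehydrogenase genes had lower log2 ratios in WT cells than in mutant cells at every dose. Their median was 0.07, -0.47 and -0.62 in the mutant at 3, 6 and 9 mM, against -1.21, -1.76 and -3.10 in WT. IMD2 and IMD3 did not pass the test in the mutant and fell in WT. Closely similar sequences make cross-hybridisation between their spots possible, so they may not be 3 separate measurements. Another copy of the family, IMD1, was not analysed here.

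IMD3 stood at 0.07, -0.47 and -0.65 in the mutant at 3, 6 and 9 mM, against -1.05, -1.76 and -2.68 in WT. Every WT value lay below every mutant value. Its WT values followed the line closely, and the scatter around the 2 fitted lines (residual SD 0.16) was lower than in all but 2.44% of genes. The slope was -0.07 ± 0.04 in the mutant (adjusted p = 0.181) and -0.30 ± 0.04 in WT (adjusted p = 6.62e-05, limma).

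IMD2 is the member of the family known for being switched by guanine nucleotides, through the choice of its transcription start site, and for giving resistance to the drug mycophenolic acid. IMD2 stood at 0.03, -0.86 and -0.15 in the mutant, against -1.21, -1.24 and -3.10 in WT. The mutant values had no steady order with dose, and the WT value dropped mainly between 6 and 9 mM. The deposited WT ratio at 9 mM was 0.09, and rounding to 2 decimals allows any value between -3.18 and -3.02 on the centred log2 scale. The slope was -0.05 ± 0.04 in the mutant (adjusted p = 0.388) and -0.31 ± 0.04 in WT (adjusted p = 0.000167).

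IMD4 stood at 0.63, 1.83 and -0.62 in the mutant, against -1.70, -3.12 and -3.68 in WT. In the mutant it was above the median gene at 3 and 6 mM and below it at 9 mM. At 6 mM the deposited ratios were 2.71 in the mutant and 0.09 in WT, which put IMD4 above 99.1% of genes on the mutant array and above 0.192% on the WT array. Its slope was 0.06 ± 0.06 in the mutant and -0.45 ± 0.06 in WT, and the WT slope was the 11th lowest of 5212. Without the mutant 6 mM array the mutant slope was -0.04, and without the mutant 9 mM array it was 0.29. IMD4 holds the small nucleolar RNA gene SNR54 within its span in the RefSeq annotation of assembly R64, and SNR54 had no named spot.

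Within an array, IMD4 and IMD3 departed from each other in opposite senses in the strains. The log2 ratio of IMD4 minus that of IMD3 was 0.56, 2.30 and 0.03 in the mutant, against -0.64, -1.35 and -1.0 in WT. IMD2 minus IMD3 was -0.03, -0.39 and 0.49 in the mutant, against -0.16, 0.52 and -0.42 in WT, with no common sign in either strain.

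**Figure D2:**
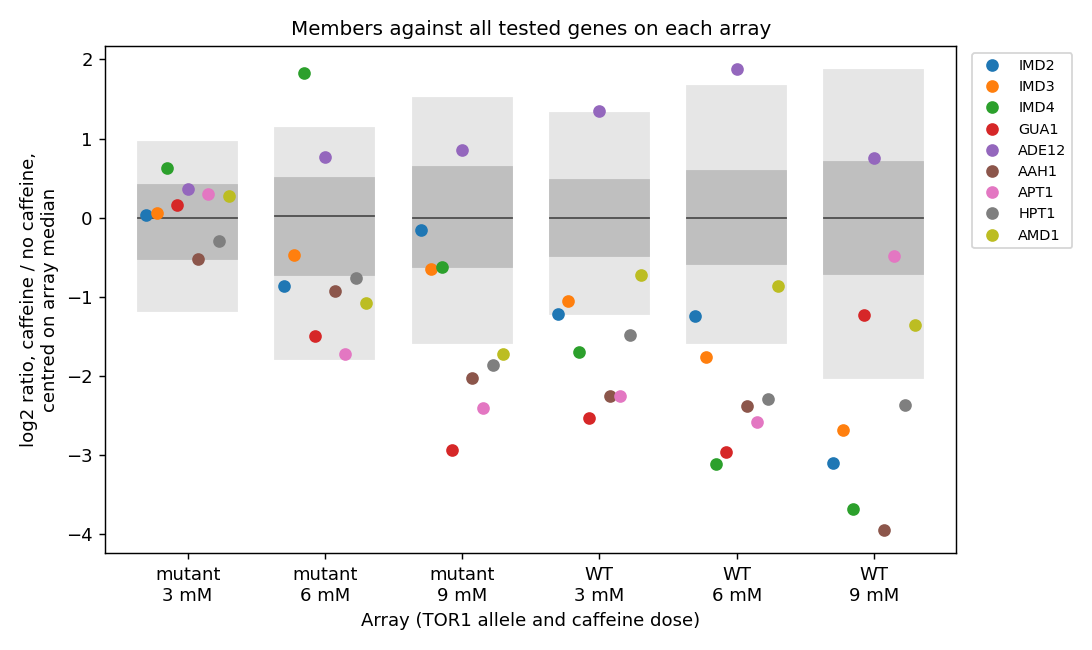
Centred log2 ratio of the 9 genes (coloured points) on each array, with mutant arrays left of WT arrays and doses from 3 to 9 mM. Pale boxes span the 5th to 95th percentile of all 5212 genes, dark boxes the 25th to 75th percentile, and lines the median. At 3 mM the mutant points lie between -0.52 and 0.63, and 7 of the WT points lie at or below -1.05.

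Array by array, the group was lowered in WT already at the lowest dose and in the mutant only at the higher ones. The median of the 9 genes was 0.16, -0.86 and -1.72 in the mutant at 3, 6 and 9 mM, against -1.48, -2.29 and -2.36 in WT. At least 2-fold below the median gene were 0, 3 and 5 of the 9 in the mutant, where 8.54%, 17.8% and 14.0% of all genes were. In WT 7 of the 9 were so at each dose, where 8.73%, 13.4% and 18.3% of all genes were. IMD4 and AAH1, singled out for their WT slopes, were among the 7 each time, so these counts are a description. At least 2-fold above it were 0, 1 and 0 of the 9 in the mutant, the 1 being IMD4, beside 4.30%, 7.35% and 14.4% of all genes. In WT ADE12 was 2-fold above at 3 and 6 mM and no gene of the 9 was at 9 mM, beside 9.57%, 14.2% and 17.3% of all genes.

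GUA1, which makes GMP from the product of IMP dehydrogenase, fell in both strains, with dose orders that differed at 9 mM. GUA1 stood at 0.16, -1.49 and -2.94 in the mutant, against -2.53, -2.96 and -1.22 in WT. It was lower at 6 mM than at 3 mM in both strains, and at 9 mM it was lower still in the mutant and least low in WT. The slopes were -0.28 ± 0.07 in the mutant (adjusted p = 0.0167) and -0.29 ± 0.07 in WT (adjusted p = 0.0094). A straight line described GUA1 poorly, with a residual SD of 1.36 that exceeded that of 99.6% of genes.

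ADE12, on the adenine branch, was the only one of the 9 with a positive log2 ratio on all 6 arrays. ADE12 stood at 0.37, 0.77 and 0.86 in the mutant, against 1.35, 1.88 and 0.76 in WT. The WT values exceeded the mutant ones at 3 and 6 mM and not at 9 mM. The slope was 0.11 ± 0.05 in the mutant (adjusted p = 0.12) and 0.18 ± 0.05 in WT (adjusted p = 0.0156). Without centring the WT call ended (adjusted p = 0.0549), as it did when the WT 6 mM array was left out (adjusted p = 0.125), and without the WT 9 mM array the mutant slope passed (adjusted p = 0.0432).

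GUA1 lay below ADE12 on all 6 arrays, and so did IMD3. GUA1 minus ADE12 on the log2 scale was -0.21, -2.27 and -3.80 in the mutant, against -3.88, -4.84 and -1.98 in WT. IMD3 minus ADE12 was -0.30, -1.24 and -1.51 in the mutant, against -2.40, -3.64 and -3.44 in WT. All 8 other genes lay below ADE12 on the mutant 9 mM array and on every WT array, and 7 of the 8 did so at 3 and 6 mM in the mutant, where IMD4 lay above it.

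AMD1, which returns AMP to IMP, fell in both strains by similar slopes. AMD1 stood at 0.27, -1.08 and -1.72 in the mutant, against -0.73, -0.86 and -1.36 in WT. The strains overlapped. The slopes were -0.17 ± 0.04 in the mutant (adjusted p = 0.0115) and -0.16 ± 0.04 in WT (adjusted p = 0.0111). The WT call ended without the WT 9 mM array (adjusted p = 0.118), and the mutant call ended when the array of mutant cells at 6 mM (adjusted p = 0.0555) or at 9 mM (adjusted p = 0.227) was left out.

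Among the salvage genes, AAH1 was lowest in WT at 9 mM. AAH1 stood at -0.52, -0.93 and -2.02 in the mutant, against -2.25, -2.38 and -3.94 in WT. Every WT value lay below every mutant value. The deposited WT ratio at 9 mM was 0.05, which rounding places between -4.10 and -3.81 on the centred scale. The slope was -0.20 ± 0.04 in the mutant and -0.45 ± 0.04 in WT, the 12th lowest of 5212.

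HPT1 stood at -0.30, -0.76 and -1.86 in the mutant, against -1.48, -2.29 and -2.36 in WT. The mutant value at 9 mM reached into the WT range. HPT1 fell in both strains, with a slope of -0.18 ± 0.04 per mM in the mutant (adjusted p = 0.0103) and -0.31 ± 0.04 in WT (adjusted p = 0.000135).

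APT1 had the same dose orders as GUA1. APT1 stood at 0.30, -1.72 and -2.41 in the mutant, against -2.25, -2.58 and -0.49 in WT. The WT values at 3 and 6 mM were thus far below that at 9 mM, while the mutant went lower with each dose. It fell in both strains, with a slope of -0.25 ± 0.08 per mM in the mutant (adjusted p = 0.0281) and -0.21 ± 0.08 in WT (adjusted p = 0.0442), with a residual SD of 1.37, again above 99.6% of genes. The WT slope of APT1 was -0.49 without the WT 9 mM array (adjusted p = 0.00167) and was not called when WT at 3 mM (adjusted p = 0.0849) or WT at 6 mM was left out, when it was -0.12 (adjusted p = 0.314). For GUA1 the WT slope was -0.56 without the WT 9 mM array (adjusted p = 0.000918) and not called without the WT 6 mM array (adjusted p = 0.106).

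Calls in the mutant changed with single arrays. Without the mutant 9 mM array none of the 9 genes fell and IMD4 was called higher (1 gene lower and 1 higher at an unadjusted p under 0.05, limma). Of all genes, 649 fell and 156 rose in the mutant without that array. The slopes of the 5 genes that fell with all arrays stayed negative without it, at -0.21 to -0.12 per mM. Without the mutant 6 mM array 3 of the 9 fell, beside 330 of all genes. In WT, 8 of the 9 fell with any mutant array left out, beside 804 to 912 of all genes. Without the WT 3 mM array 7 fell, beside 746 of all genes. Without the WT 6 mM array 6 fell, beside 624, and without the WT 9 mM array 7, beside 475.

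The difference between the strains was tested as the mutant slope minus the WT slope. Of the 7 genes other than IMD4 and AAH1 it passed for IMD2 and IMD3, both higher in the mutant, beside 1.94% of all genes higher and 2.32% lower (4.26% either way). IMD4 and AAH1 had been singled out for the WT slope that enters this difference, so their differences are a description. The difference was 0.26 ± 0.06 per mM for IMD2 (adjusted p = 0.0357) and 0.23 ± 0.05 for IMD3 (adjusted p = 0.0295), and each was higher in the mutant at 3 of 3 doses. For AAH1 it was 0.25 ± 0.06, and for IMD4 0.51 ± 0.09, the highest of all 5212 differences. The mutant minus WT log2 difference of IMD4 was 2.33, 4.95 and 3.07 at the rising doses.

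**Figure D3:**
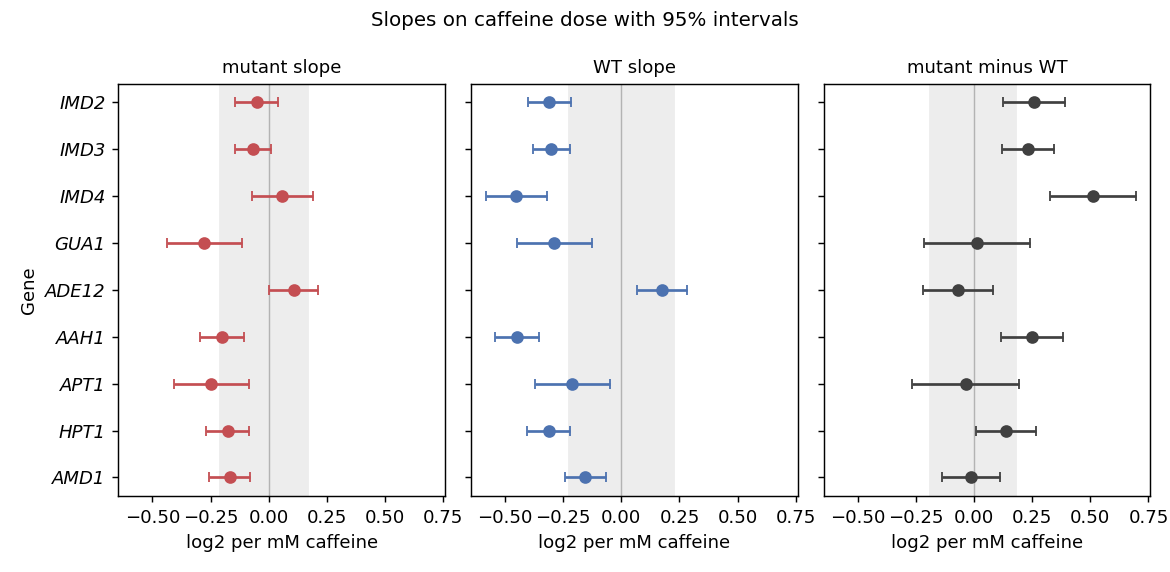
Fitted slope of each of the 9 genes in log2 units per mM caffeine, for mutant, WT and mutant minus WT. Bars are 95% intervals and grey bands span the 5th to 95th percentile of all genes. The intervals of the difference lie above 0 for IMD2, IMD3 and, without passing the adjusted test, HPT1. Those of IMD4 and AAH1, singled out for their WT slopes, also lie above 0 and are shown as a description.

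The calls of IMD2 and IMD3 ended under several settings. With the arrays blocked by dose the adjusted p was 0.0799 for IMD2 and 0.0627 for IMD3, and after quantile normalization it was 0.278 for both, with no gene of the 5212 called (315 lower and 340 higher at an unadjusted p under 0.05, limma). On the mean over doses it was 0.113 for IMD2 and 0.0823 for IMD3. With 1 array left out at a time, IMD2 was called only without the mutant 6 mM array (adjusted p = 0.0388, and 0.058 to 0.17 in the other 5 fits) and IMD3 only without the WT 3 mM array (adjusted p = 0.0471, and 0.0608 to 0.089 in the other 5). Over these 6 fits the slope difference itself ran from 0.20 to 0.30 for IMD2 and from 0.23 to 0.24 for IMD3.

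HPT1 did not pass (0.14 ± 0.06, adjusted p = 0.211), with a 95% interval of 0.01 to 0.27 per mM. AMD1, GUA1, APT1 and ADE12 did not pass either. The 95% interval of the difference was -0.14 to 0.11 for AMD1, -0.22 to 0.24 for GUA1, -0.26 to 0.19 for APT1 and -0.22 to 0.08 for ADE12. A slope hides the dose orders of GUA1 and APT1. The mutant minus WT log2 difference of GUA1 was 2.69, 1.47 and -1.72 at 3, 6 and 9 mM, and that of APT1 was 2.55, 0.86 and -1.92. With 1 array per dose these differences have no test. Across the 9 genes, 5 were above WT at all 3 doses in the mutant, against 24.5% of all genes. IMD4 and AAH1, singled out for their WT slopes, were among the 5, so the count is a description.

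The pathway around these genes was described from fixed lists, by counts and with no test of a list. De novo purine synthesis makes IMP from a ribose donor. Of 12 tested genes of that synthesis, its one-carbon supply and its regulators, 2 rose and 2 fell in the mutant, against 8 that rose and 2 that fell in WT. ADE8 and PHO2 were those that fell in the mutant, and ADE8 and BAS1 those in WT, named after their values were seen. Among all genes 12.1% rose and 15.8% fell in the mutant, and 17.2% rose and 16.3% fell in WT. The median slope of the 12 was 0.05 in the mutant and 0.14 in WT, and that of all genes was 0.00 in both. ADE4, the first enzyme of the pathway, stood at -0.16, 0.72 and 0.92 in the mutant, against 0.69, 0.92 and 0.80 in WT, and rose in WT (adjusted p = 0.0344) and not in the mutant (adjusted p = 0.0803). ADE13, which acts both on the way to IMP and after ADE12, stood at 0.26, 0.29 and 0.27 in the mutant, against 0.53, 1.47 and 0.92 in WT. It rose in WT (slope 0.15 ± 0.04, adjusted p = 0.0119).

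ADE16 and ADE17 encode paired enzymes of the last steps to IMP. ADE16 rose in both strains, to 1.63 in the mutant and 1.10 in WT at 9 mM. ADE17 stood at -0.67, 0.23 and -0.06 in the mutant, against 2.33, 2.46 and 1.93 in WT, and rose in WT (adjusted p = 0.00122). It was the one de novo gene whose slope differed between the strains (-0.32 ± 0.08, adjusted p = 0.0456), the log2 ratio of ADE17 being lower in the mutant. After quantile normalization no difference of any gene passed. ADE2 stood at 0.17, 0.45 and 1.23 in the mutant, against 1.14, 0.81 and 1.06 in WT, and rose in WT (adjusted p = 0.0171).

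Of 22 further tested genes listed with purine salvage, interconversion, uptake and ribose supply, none rose and 5 fell in the mutant. In WT 4 rose (GUD1, FCY21, FCY22 and SAF1) and 5 fell. The WT counts are near the shares of all genes, of which 17.2% rose and 16.3% fell, and in the mutant 12.1% of all genes rose and 15.8% fell. Their median slope was -0.03 in the mutant and 0.02 in WT. PRS3 encodes a subunit of the enzyme that makes the ribose donor of de novo synthesis and of the phosphoribosyltransferases. It stood at 0.29, -0.02 and -0.41 in the mutant, against -1.09, -1.24 and -1.81 in WT. PRS3 fell in WT (adjusted p = 0.00107). FCY21, a putative purine and cytosine permease gene, was the one of the 22 whose slope differed between the strains (-0.27 ± 0.07, adjusted p = 0.042). The log2 ratio of FCY21 was lower in the mutant, and the call ended after quantile normalization. FCY21 and the other genes of the list that rose in WT were named after their values were seen. The difference of PRS3 between the strains did not pass (0.19 ± 0.06, adjusted p = 0.068).

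ADO1, adenosine kinase, stood at 1.31, 0.41 and 0.66 in the mutant, against -0.30, 0.22 and 0.29 in WT, and passed in neither strain. GUK1, guanylate kinase, stood at 0.32, 0.18 and 0.20 in the mutant, against -0.56, 0.60 and -0.48 in WT, and passed in neither. ADK1, adenylate kinase, stood at -1.0, -1.60 and -0.86 in the mutant, against -0.02, -0.33 and -1.06 in WT, and fell in the mutant (adjusted p = 0.0183). PNP1, purine nucleoside phosphorylase, FCY2, the purine and cytosine permease, and ISN1, an IMP nucleotidase, passed in neither strain. FCY2 stood at -0.73, -0.82 and -0.59 in the mutant, against 0.00, -0.24 and 1.69 in WT. XPT1, xanthine phosphoribosyltransferase, lacked a value on 1 WT array and was not fitted.

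The Nrd1, Nab3 and Sen1 proteins end the early transcripts that keep IMD2 low when guanine nucleotides are plentiful, and PCF11 and DST1 act in termination and elongation. Of these 5 genes 3 fell in the mutant (NAB3, PCF11 and DST1) and 2 fell in WT (SEN1 and PCF11), beside 15.8% of all genes in the mutant and 16.3% in WT. None differed between the strains by the adjusted test.

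**Figure D4:**
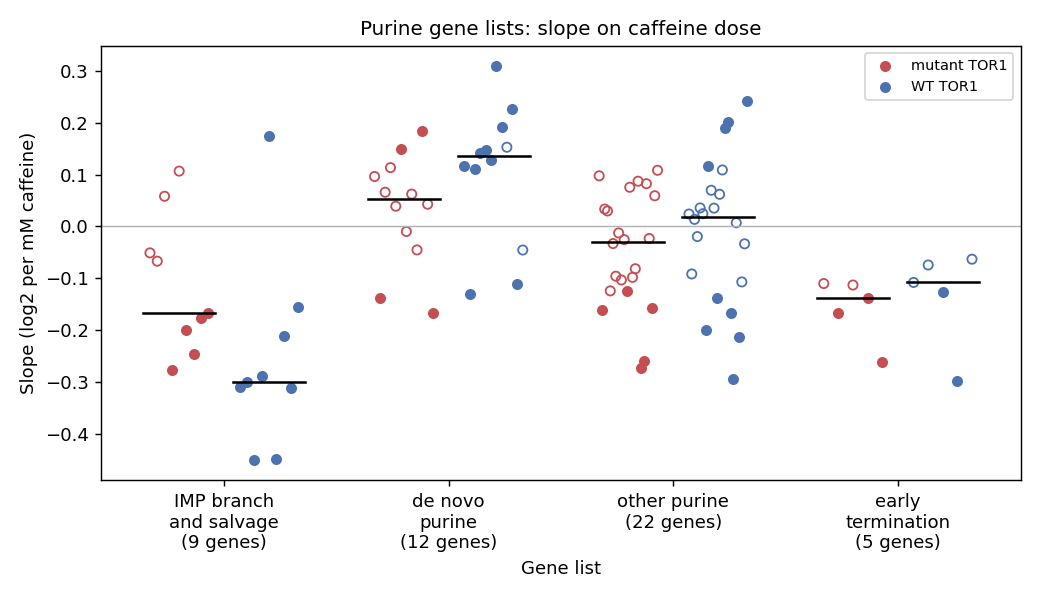
Slope on caffeine dose (log2 units per mM) of each tested gene in 4 lists, with mutant TOR1 (red) left of WT TOR1 (blue). Filled points passed the adjusted test in that strain, open points did not, and bars are list medians. The medians of the 9 branch and salvage genes are -0.17 in the mutant and -0.30 in WT, and those of the de novo genes 0.05 and 0.14 in the same order.

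Likeness to other genes was measured as the Euclidean distance over the 6 centred log2 ratios, among all 5212 tested genes. IMD3 was the nearest gene to IMD2, at a distance of 0.93. The 5 nearest to IMD3 were RPG1, RPL1A, RPL8A, RRP12 and RPL42A, at 0.52 to 0.61, and IMD2 ranked 25th. IMD4 had no close neighbour. Its nearest were RPF2, YTM1, MUP1, NIP7 and RMT2, at 2.12 to 2.48, and IMD3 ranked 45th. The genes nearest to AAH1 were DRS1, RPS6B, RPL43A, GAR1 and EFM4, at 0.66 to 0.96, and HPT1 ranked 37th. From each of the other 8 genes, ADE12 ranked between 4740th and 4893rd.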

How the data were processed

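The authors deposited log2 ratios of the channels of spotted arrays, with untreated RNA in Cy3 and RNA from caffeine-treated cells in Cy5 per the labels, and no dye exchange. That the base is 2 follows from the values: 100.0% gave ratios of 2 decimals, within a tolerance of 0.01 hundredths. Background correction, spot filters and normalization are not given in the sources used here, and low ratios are coarse. The labels do not say whether the untreated RNA was 1 pool or the doses separate cultures. The p-values set a slope against the scatter around the fitted lines, and that scatter may be only technical.

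Of 6214 probes, 5596 had 1 gene symbol and 618 none. Spots of a gene were averaged, and 5212 genes had 6 values. Each array was centred on its median named gene. Slopes were fitted with limma 3.58.1 in R 4.3.3 (no intercept, 4 residual degrees of freedom), with Benjamini-Hochberg adjustment over 5212 genes, 2-sided. The procedure was tested on simulated data. The 9 genes and the lists were chosen with earlier results of these data known. Further genes were named by their place in the pathway or by likeness, except those said to be named after their values were seen. Promoter motifs were not counted, as no sequence was used here. Alternatives covered centring, quantile normalization, a shared intercept, dose, missing values, spots and each array left out.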

Additional observations from a re-analysis of the deposited data

Results flagged for a closer look

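Slopes on dose differed between the strains, mutant minus WT, by 0.51 per mM for IMD4, 0.2581 for IMD2, 0.2478 for AAH1 and 0.2335 for IMD3. All 4 were higher in the mutant at 3 of 3 doses. IMD2 and IMD3 passed the adjusted test of the difference itself in limma, and IMD4 and AAH1, singled out earlier for their WT slopes, are given as a description. For IMD2 the adjusted p ranged from 0.0349 to 0.278 over 14 alternatives, of which 6 passed, and for IMD3 from 0.0293 to 0.278, of which 6 passed. Most of these passes nearly repeat the main fit and add little. Both genes had 1 spot and 6 values, so the settings for spots and missing values refitted nearly the same numbers. A shared intercept left the differences at 0.2581 and 0.2335, and centring on all probes gave 0.2557 and 0.2311.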

How the results depend on the processing

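Of the 117 slopes in each strain (9 genes under 13 alternatives), none changed sign in WT, and 17 calls were lost. Leaving out an array of one strain cannot change a slope of the other, so some of these signs were fixed beforehand. In the mutant 20 calls were lost, 3 were gained and 4 slopes changed sign.

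On the values as deposited, genes called lower and higher were 1737 and 201 in the mutant and 1483 and 489 in WT, with 48 differences higher, and no member rose in WT (1 at an unadjusted p under 0.05). Centred, they were 822 and 633, 852 and 896, and 101 (121 differences lower). Quantile normalization left 391 and 316 in the mutant, 443 and 360 in WT and 0 and 0 differences. No member then fell in the mutant (5 at an unadjusted p under 0.05), 5 fell and 0 rose in WT (1 so). For the difference 0 passed (3 so, IMD4 among them as a description). An intercept shared by all arrays, which takes up a constant dye bias, left 8 and 14 in the mutant, 65 and 79 in WT, 0 members lower in the mutant (1 so), and 2 lower and 0 higher in WT (0 so). Both strains had the same doses, so a shared intercept cannot change a slope difference, which stayed at 0.2581 for IMD2 and 0.2335 for IMD3. That both differences passed there therefore adds no support. With the mean over doses 2 members fell in the mutant. The 1 difference below the threshold there was that of IMD4, which is a description. With a replicate block by dose, 12 genes were called lower and 2 higher for the difference, and 0 members (4 at an unadjusted p under 0.05). IMD4 and AAH1, which are a description, were among these 4. The cause of these changes was not tested.

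Leaving out 1 array gave 330 to 902 genes lower and 156 to 741 higher in the mutant, 475 to 912 and 557 to 941 in WT, and 16 to 200 and 3 to 136 for the difference. Members lower in the mutant were 0 to 5, higher 0 to 1, higher in WT 0 to 1, and higher for the difference 0 to 2. IMD4, which is a description, was in every count of differences above 0.

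Slopes that changed sign had not passed the test. In the mutant these were IMD4, at -0.004 as deposited, -0.0143 with a shared intercept and -0.0407 without mutant 6 mM, and ADE12, at -0.0428 with a shared intercept. For the difference, the mean over doses gave 0.4973 for APT1 and 0.1414 for AMD1. Leaving out arrays gave -0.0706 to 0.287 for GUA1, -0.1233 to 0.2479 for APT1 and -0.032 to 0.0299 for AMD1.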

Other observations

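The dose orders of GUA1 and APT1 were looked at after their values were seen. APT1 was the nearest of all genes to GUA1, at a distance of 1.06, followed by URA1 and TRI1. TRI1 was the nearest to APT1, at 0.82, followed by GUA1 and URA1. TRI1 and URA1 were thus chosen by the values given here. TRI1 stood at -0.05, -2.08 and -2.41 in the mutant, against -2.75, -2.96 and -0.31 in WT. URA1, dihydroorotate dehydrogenase of pyrimidine synthesis, stood at 0.03, -1.55 and -2.20 in the mutant, against -1.88, -3.12 and -1.62 in WT.

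The protein-coding genes next to the 9 on the chromosome, by the order of the RefSeq annotation of assembly R64, numbered 18, of which 16 were tested. Among them 2 rose and 3 fell in the mutant, and 3 rose and 2 fell in WT, counts near the shares of all genes (12.1% and 15.8% in the mutant, 17.2% and 16.3% in WT). For the slope difference 0 were higher and 1 lower in the mutant, beside 1.94% and 2.32% of all genes. The lower one was PHO12, next to IMD2 (-0.23 per mM, adjusted p = 0.0364, limma). MEP2, an ammonium permease gene next to AAH1, stood at 0.55, -0.20 and -0.72 in the mutant, against 0.04, 0.76 and 1.35 in WT. The slope difference of MEP2 did not pass (adjusted p = 0.0973, limma). CMP2, a calcineurin subunit gene next to IMD4, rose in both strains, to 1.54 in the mutant and 1.84 in WT at 9 mM. PHO12, MEP2 and CMP2 were picked after their values were seen.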
